A study of Mus musculus with 9 samples.

Results

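The genes described here make, receive and break down endothelin peptides in the mouse ovary. They are the ligand genes Edn1, Edn2 and Edn3, the receptor genes Ednra and Ednrb, the endothelin-converting enzyme genes Ece1 and Ece2, and the neprilysin genes Mme and Mmel1. The 9 genes were taken by symbol from the 46078 genes of the count table, each symbol had a single row, and all 9 were among the 16722 genes that passed the filter on low counts. RNA-seq was performed on whole ovaries of 5 WT and 4 ERβKO mice of the C57BL/6J strain, with 1 library per mouse. ERβKO mice carried a germline deletion of exon 3 of Esr2, which encodes estrogen receptor β, made with a Rosa26-Cre deleter line, and WT mice were offspring without Cre. The mice of the whole study were 4 to 20 weeks old, the age of the single animals is not given, and no estrous stage was selected. Every library is labelled Untreated, although the general protocol in the labels describes high-fat or control diet and injections of DPN or vehicle, so the diet of these mice is not stated in the sources used here.

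Endothelins are short peptides cut from larger precursors, first by proprotein convertases such as furin and then by an endothelin-converting enzyme, which makes the active peptide. They act on 2 G protein-coupled receptors, of which EDNRA is best known for contraction of smooth muscle, and EDNRB for relaxation through nitric oxide from endothelial cells and for clearing the peptide. In the ovary, endothelin 2 is known as a product of granulosa cells that appears briefly around ovulation, and contraction through EDNRA is part of follicle rupture. The converting enzymes and neprilysins belong to one family of membrane zinc peptidases, the M13 family, and neprilysin degrades endothelins along with natriuretic peptides, tachykinins and enkephalins.

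The level of each gene is given in FPKM (fragments per kilobase of gene, scaled to the mapped fragments of the library), as calculated by the authors, so that levels can be compared between genes. Counts of the genotypes were compared by the quasi-likelihood test of edgeR. A gene was called a DEG when its Benjamini-Hochberg adjusted p over all genes tested was under 0.05, its absolute log2 fold change was over 0.4 and its mean FPKM was over 1 in at least 1 genotype. A positive log2 fold change means a higher level in ERβKO, and its standard error (SE) is given with it. Of all genes tested, 1.72% were called in either direction, and 0.801% were called lower in ERβKO ovaries. Of the 9 genes, 2 were called, Ednra and Mmel1, both lower in ERβKO ovaries. The median log2 fold change of the 9 genes was 0.06, and that of all genes tested was -0.0009. DESeq2, the tool of the study, called 4.78% of all genes tested and 3 of the 9, the same pair and Ednrb.

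The libraries held 12353740 to 18717510 counts. The count of Esr2 covers the whole gene and includes the exons that the knockout allele keeps, and its level was 12.4 to 23.9 FPKM in WT ovaries against 10.5 to 23.7 FPKM in those of ERβKO mice. Its log2 fold change was -0.02 (SE 0.24), and its adjusted p was 0.966 by edgeR's quasi-likelihood test, so the total count of Esr2 does not check the labels. WT replicate 2 stood apart from the other WT ovaries. On the first principal component, which held 35.9% of the variance, it lay at 9.43, while the other 4 WT ovaries lay between -43.8 and -15.6 and the ERβKO ovaries between 19.4 and 35.4. Leaving it out changed the number of DEGs from 287 to 919, and for Ednra, Ednrb, Mmel1 and Ece1 the fit without it is given as well.

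The start of Mmel1 and that of Ednra are shown because these genes were called. Sequences are from RefSeq on GRCm38.p6, run 5′ to 3′ on the gene's own strand and cover the 250 bases before the RefSeq start, with each CpG in capitals. That of Mmel1 lies at chr4:154869335-154869584 on the plus strand, and that of Ednra at chr8:77724453-77724702 on the minus strand, where the RefSeq start lies a few bases inside the GENCODE gene.
Mmel1: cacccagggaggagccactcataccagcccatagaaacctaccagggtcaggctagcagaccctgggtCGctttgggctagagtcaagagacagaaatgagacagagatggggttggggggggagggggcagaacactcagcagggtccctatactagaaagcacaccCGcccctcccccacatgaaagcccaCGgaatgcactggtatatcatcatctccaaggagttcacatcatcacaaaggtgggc
Ednra: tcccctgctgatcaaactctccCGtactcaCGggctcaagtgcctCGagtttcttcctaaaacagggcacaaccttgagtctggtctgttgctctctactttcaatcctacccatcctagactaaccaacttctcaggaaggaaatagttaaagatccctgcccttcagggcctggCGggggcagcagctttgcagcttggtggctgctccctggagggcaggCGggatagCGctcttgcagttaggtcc
Over the window of 300 bases that also takes in the 50 bases after the start, the Mmel1 promoter held 5 CpG and 57.7% G or C, and the Ednra promoter held 8 CpG and 54.7% G or C. The medians over 32851 promoters of the RefSeq table were 7 CpG and 52.7%. The half-site to which estrogen receptors bind, AGGTCA on either strand, was found in 16.3% of all these promoters. Among the 9 genes, all of which had an entry, it was found only at Mmel1. There it lies on the reverse strand and starts 18 bases after the gene's start, in the stretch shown next with the half-site in capitals.
Mmel1 half-site: gccagcaccgtgTGACCTcacacccagctc
The full inverted repeat, GGTCANNNTGACC, which shares the letters GGTCA with the half-site, was found in 0.07% of all promoters and in none of the 9 genes. A match of letters is not a measured binding site.

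Across the 9 ovaries, Ece1 had the highest mean level, 39.2 FPKM. It was followed by Mme at 14.4 and Ednra at 13.4 FPKM. Mmel1 had a mean of 5.19 FPKM, Ece2 3.91, Ednrb 3.9, Edn1 2.71, Edn3 1.17 and Edn2 0.435 FPKM. The lowest ovary for Ece1, at 29.9 FPKM, was above the highest ovary for Mme, at 16.2 FPKM. Mme and Ednra overlapped, as did Ece2, Ednrb and Edn1, and the lowest ovary for Edn1, at 2.01 FPKM, was above the highest for Edn3, at 1.88 FPKM. Edn3 and Edn2 overlapped. Mmel1 fitted no single place in this order, since its mean was 9.13 FPKM in WT ovaries and 0.263 FPKM in ERβKO ovaries, the lowest of the 9 genes there.

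**Figure D1:**
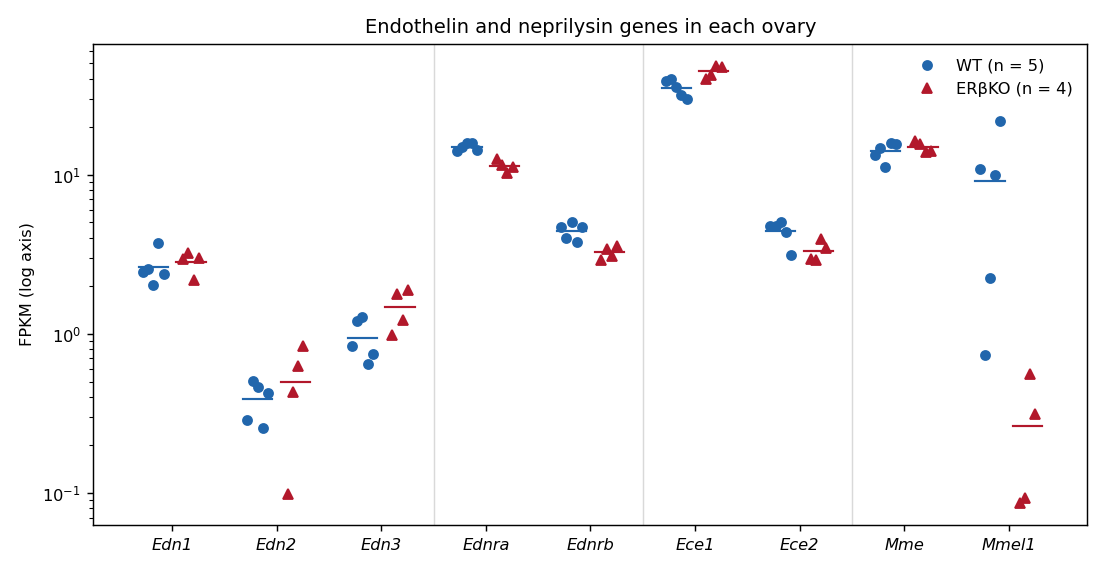
FPKM of the 9 genes on a log axis, with 1 point per ovary (circles, 5 WT; triangles, 4 ERβKO) and a line at each group's mean. The ERβKO ovaries lie below all WT ovaries for Ednra, Ednrb and Mmel1, as in 3.31% of all genes tested. Mmel1 spreads from 0.732 to 21.8 FPKM within WT.

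Among the ligands, none passed the test between the genotypes. Edn1 (ENSMUSG00000021367) lies on chromosome 13 from 42301270 to 42307989 of GRCm38 and encodes endothelin 1, the peptide best known from endothelial cells. Its level was 2.44, 2.56, 2.01, 3.69 and 2.38 FPKM across WT replicates 1 to 5 and 2.93, 3.23, 2.16 and 3.0 FPKM across ERβKO replicates 1 to 4. The values of the genotypes overlapped over most of their range. The log2 fold change of Edn1 was 0.06 (SE 0.18), and its adjusted p was 0.886 by edgeR's quasi-likelihood test.

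Edn2 (ENSMUSG00000028635; chromosome 4, 120161206 to 120167360), the ovulatory ligand, had few counts in every ovary. It had 8, 19, 16, 11 and 15 counts in WT replicates 1 to 5, and 4, 19, 20 and 25 counts in ERβKO replicates 1 to 4. Both the lowest and the highest ovary were ERβKO, at 0.0989 FPKM in replicate 1 and 0.833 FPKM in replicate 4. The log2 fold change of Edn2 was 0.24 (SE 0.46, adjusted p = 0.817 in edgeR's quasi-likelihood test). Without ERβKO replicate 1 it was 0.59 (SE 0.31, adjusted p = 0.362 in edgeR's test), and without ERβKO replicate 4 it was -0.07 (SE 0.5, adjusted p = 0.965).

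Edn2 is known to appear at ovulation, so 10 genes that are induced around ovulation were read beside it. Of these 10, 8 passed the filter on low counts, and none was called by edgeR or by DESeq2. Their median log2 fold change was 0.12. The smallest p values belonged to Areg, which encodes the EGF-like ligand amphiregulin (log2 fold change 0.51, SE 0.27, adjusted p = 0.334 in edgeR's test), to Ereg, which encodes epiregulin (0.59, SE 0.34), and to Tnfaip6, whose product stabilises the cumulus matrix (-0.39, SE 0.27). Ereg was at 0.431 ± 0.099 FPKM in WT ovaries against 0.633 ± 0.34 FPKM in those of ERβKO mice (SD, n = 5 WT and n = 4 ERβKO), and Tnfaip6 at 0.507 ± 0.15 and 0.366 ± 0.062 FPKM.

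Edn3 (ENSMUSG00000027524; chromosome 2, 174760619 to 174784042) encodes endothelin 3, which is best known as the EDNRB ligand of neural crest cells. Its level was 0.836, 1.21, 1.27, 0.641 and 0.748 FPKM across WT replicates 1 to 5. In ERβKO replicates 1 to 4 it was 0.978, 1.78, 1.22 and 1.88 FPKM. ERβKO replicates 2 and 4 were above every WT ovary, while the other 2 lay within the WT range. Edn3 had the largest fold change of the ligands, with a log2 value of 0.67 (SE 0.23), but it did not pass (adjusted p = 0.147 in edgeR's quasi-likelihood test). Over the alternative settings its log2 fold change was 0.34 to 0.81, and it was called in none of them.

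Both receptors were lower in each ERβKO ovary than in any WT ovary, and Ednra passed the test. Ednra (ENSMUSG00000031616; chromosome 8, 77663031 to 77724464, minus strand) was the most even of the 9 genes in WT ovaries, at 14.1, 15.0, 15.7, 15.8 and 14.3 FPKM in replicates 1 to 5. In ERβKO replicates 1 to 4 it was 12.6, 11.4, 10.3 and 11.2 FPKM. The 4 ERβKO ovaries all lay below the 5 WT ovaries, a pattern found in 3.31% of all genes tested. The means were 15.0 ± 0.8 FPKM in WT ovaries against 11.4 ± 0.92 FPKM in those of ERβKO mice (SD, n = 5 WT and n = 4 ERβKO), a WT level 1.32 times that of ERβKO. For Ednra, the log2 fold change was -0.41 (SE 0.061), and its adjusted p was 0.0127 by edgeR's quasi-likelihood test.

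This fold change stands just past the threshold of 0.4. With 1 ovary left out in turn, the log2 fold change of Ednra was -0.45 to -0.37 and its adjusted p 0.00922 to 0.0544 in edgeR's test. It was called in 5 of these 9 fits and was lost without WT replicate 3 (-0.4), WT replicate 4 (-0.39), ERβKO replicate 2 (-0.4) or ERβKO replicate 3 (-0.37), where the fold change no longer passed 0.4 or, without ERβKO replicate 2, the adjusted p was 0.0544. Without WT replicate 2 it was -0.42 (adjusted p = 0.00922, edgeR). In GENCODE vM21, 1.66% of the exon length of Ednra is shared with the gene 4933431K23Rik on the other strand, and the strand setting of the counting is not stated.

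Ednrb (ENSMUSG00000022122; chromosome 14, 103814625 to 103844173, minus strand) was at 4.68, 3.97, 5.06, 3.76 and 4.67 FPKM across WT replicates 1 to 5 and at 2.91, 3.39, 3.1 and 3.57 FPKM across ERβKO replicates 1 to 4. The ERβKO ovaries lay below all WT ovaries, as in 3.31% of all genes tested, although WT replicate 4 and ERβKO replicate 4 lay close together. The WT mean was 4.43 ± 0.54 FPKM and the ERβKO mean 3.24 ± 0.3 FPKM (SD, n = 5 WT and n = 4 ERβKO), with a log2 fold change of -0.49 (SE 0.12). By edgeR this did not pass (adjusted p = 0.0628), while by DESeq2 it did (adjusted p = 0.00525). Without WT replicate 2, Ednrb was called by edgeR as well (-0.54, adjusted p = 0.0273). This was the only call in the 9 fits with 1 ovary left out, where the adjusted p reached 0.16 in edgeR's test.

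The balance between the receptors was compared within each ovary, as the log2 ratio of Ednra to Ednrb after adding 0.1 to each FPKM. It was 1.74 ± 0.21 in WT and 1.78 ± 0.2 in ERβKO ovaries (SD, n = 5 WT and n = 4 ERβKO). The difference of 0.04 did not pass a two-sided exact permutation test (p = 0.81, and 0.81 after Benjamini-Hochberg adjustment over the 3 gene pairs compared). Ednrb made up 19.2% to 24.9% of the summed FPKM of both receptors in WT ovaries and 18.8% to 24.2% in ERβKO ovaries.

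Both receptors are known from the vessel wall, so markers of endothelial and smooth muscle cells were read beside them. Of 8 endothelial markers, none was called and their median log2 fold change was -0.09. Their summed level was 99.6 to 124 FPKM in WT ovaries against 94.9 to 116 FPKM in those of ERβKO mice. Of 7 smooth muscle markers, none was called, the median log2 fold change was -0.18, and the sum was 643 to 1160 FPKM in WT ovaries against 663 to 814 FPKM in those of ERβKO mice. No marker of either list was at 0. In bulk tissue, fewer cells of a type cannot be told apart from less RNA per cell.

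Genes that act after the receptors showed no call in edgeR's test. Of 24 such genes, among them those for G proteins, phospholipase C, inositol trisphosphate receptors, protein kinase C, arrestins and regulators of G protein signalling, all were tested and 15 had a negative log2 fold change, with a median of -0.04. Prkcd, which encodes protein kinase C delta, was at 43.8 ± 3.1 FPKM in WT ovaries against 56.7 ± 6 FPKM in those of ERβKO mice (SD, n = 5 WT and n = 4 ERβKO). Its adjusted p was 0.0456 in edgeR's test, but its log2 fold change of 0.35 (SE 0.075) was under the threshold. Rgs5, a regulator of G protein signalling that marks pericytes, was at 22.5 ± 3.6 FPKM in WT ovaries against 15.3 ± 2.1 FPKM in those of ERβKO mice, with a log2 fold change of -0.59 (SE 0.14, adjusted p = 0.054 in edgeR's test and 0.00182 in DESeq2). Plcb2, a phospholipase C, was at 3.44 ± 2 and 1.25 ± 0.31 FPKM, with a log2 fold change of -1.34 (SE 0.33, adjusted p = 0.0618 in edgeR's test and 0.00131 in DESeq2). DESeq2 called 4 genes of this list, all lower, which were Rgs5, Plcb2 and, named after their values were seen, Itpr2 and Prkca.

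Contractile genes were not called in either tool. All 10 were tested, 6 of them had a negative log2 fold change, and the median was -0.16. The smooth muscle markers read above are all among these genes, so this is not a separate reading. The smallest p values were those of Lmod1, which nucleates actin filaments in smooth muscle (log2 fold change -0.26, SE 0.11, adjusted p = 0.238 in edgeR's test), Tagln, which encodes transgelin (-0.3, SE 0.14), and Myl9, a myosin light chain (0.28, SE 0.19).

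The converting enzymes had log2 fold changes of opposite sign, and neither passed alone. Ece1 (ENSMUSG00000057530; chromosome 4, 137862237 to 137965229) encodes the enzyme that makes active endothelin at the cell surface. Its level was 38.5, 40.1, 35.4, 31.5 and 29.9 FPKM across WT replicates 1 to 5. In ERβKO replicates 1 to 4 it was 39.9, 42.3, 48.2 and 47.3 FPKM. ERβKO replicate 1 lay just below WT replicate 2, and the other ERβKO ovaries were above all WT ovaries. The log2 fold change of Ece1 was 0.32 (SE 0.097), and its adjusted p was 0.113 by edgeR's quasi-likelihood test. Without WT replicate 2 it was 0.36 (SE 0.096, adjusted p = 0.0506 in edgeR's test), which was not called either.

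Ece2 (ENSMUSG00000022842; chromosome 16, 20611593 to 20646485) encodes a related enzyme that works at acidic pH inside the cell. Its level was 4.78, 4.72, 5.03, 4.36 and 3.12 FPKM across WT replicates 1 to 5 and 2.94, 2.9, 3.95 and 3.44 FPKM across ERβKO replicates 1 to 4. Only WT replicate 5 lay within the ERβKO range. For Ece2, the log2 fold change was -0.28 (SE 0.16), and its adjusted p was 0.344 by edgeR's quasi-likelihood test. The value of Ece2 is uncertain in one respect. In the deposited tables the gene starts 18235 bases before its start in GENCODE vM21, a stretch that GENCODE assigns to Eef1akmt4 and to the readthrough gene Gm49333, and the count table has no row for either. Of the exon length of Ece2 in GENCODE, 57.5% is shared with Gm49333.

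Within each ovary, the log2 ratio of Ece1 to Ece2 was 2.99, 3.06, 2.79, 2.83 and 3.22 in WT replicates 1 to 5. It was 3.72, 3.82, 3.57 and 3.74 in ERβKO replicates 1 to 4. All ERβKO ovaries were above all WT ovaries. The means were 2.98 ± 0.18 and 3.71 ± 0.1 (SD, n = 5 WT and n = 4 ERβKO), a difference of 0.74 (two-sided exact permutation test, p = 0.0159, 0.0238 after Benjamini-Hochberg adjustment over 3 pairs). This p is the smallest that 5 against 4 ovaries can give. Ece2 made up 9.44% to 12.5% of the summed FPKM of both enzymes in WT ovaries and 6.41% to 7.58% in ERβKO ovaries. When CPM from the counts were used in place of FPKM, the difference was 0.59 with the same p in the exact test. The uncertainty about the extent of Ece2 in the deposited data, given above, holds for this ratio and share too.

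**Figure D2:**
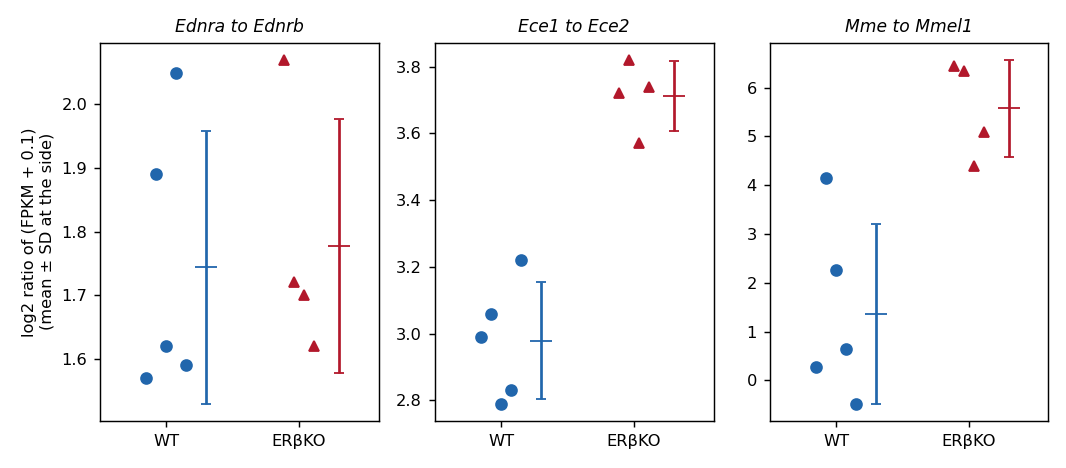
Log2 ratio of the FPKM of related genes within each ovary, after adding 0.1, with 1 point per ovary (circles, WT; triangles, ERβKO) and the mean ± SD at the side. The genotypes overlap for the receptors and do not overlap for the converting enzymes and the neprilysins; each panel has its own axis.

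The neprilysins differed from each other in the genotype comparison. Mme (ENSMUSG00000027820; chromosome 3, 63241537 to 63386030), which encodes neprilysin, was at 13.2, 14.6, 11.1, 15.7 and 15.6 FPKM across WT replicates 1 to 5. In ERβKO replicates 1 to 4 it was 16.2, 15.6, 13.8 and 14.1 FPKM. The ranges overlapped, and the log2 fold change of Mme was 0.11 (SE 0.11, adjusted p = 0.643 in edgeR's quasi-likelihood test).

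Mmel1 (ENSMUSG00000058183; chromosome 4, 154869585 to 154895528), which encodes a secreted and membrane-bound relative of neprilysin, fell in ERβKO ovaries. It was at 10.9, 0.732, 2.24, 9.98 and 21.8 FPKM across WT replicates 1 to 5. In ERβKO replicates 1 to 4 it was 0.0863, 0.0924, 0.557 and 0.314 FPKM. All ERβKO ovaries were below all WT ovaries, as in 3.31% of all genes tested. WT replicate 2 was near ERβKO replicate 3, and the highest WT ovary was 29.8 times the lowest. The counts behind these values were 546, 46, 141, 641 and 1213 in WT and 6, 6, 28 and 22 in ERβKO ovaries. The WT mean of 9.13 ± 8.4 FPKM was 34.8 times the ERβKO mean of 0.263 ± 0.22 FPKM (SD, n = 5 WT and n = 4 ERβKO). The log2 fold change of Mmel1 was -5.22 (SE 1.1), and its adjusted p was 0.0376 by edgeR's quasi-likelihood test and 2.77e-05 by DESeq2.

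The direction of Mmel1 was the same in every setting in which it was tested, and the call was not. With 1 ovary left out in turn, the log2 fold change was -5.75 to -4.58 and the adjusted p was 0.00732 to 0.128 in edgeR's test. Mmel1 was called without WT replicate 2 (-5.53, adjusted p = 0.00732) and without WT replicate 3 (-5.47, adjusted p = 0.026), and it was not called in the other 7 fits, which leave out WT replicate 1, 4 or 5 or any ERβKO replicate. In GENCODE vM21, 0.719% of the exon length of Mmel1 is shared with Fam213b on the other strand.

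Mmel1 was also set against Mme in the same ovary. This ratio reuses the Mmel1 values above, and Mme was not called, so the test gives no separate support for Mmel1. The log2 ratio of Mme to Mmel1 was 1.37 ± 1.8 in WT and 5.58 ± 0.99 in ERβKO ovaries (SD, n = 5 WT and n = 4 ERβKO), a difference of 4.21 (two-sided exact permutation test, p = 0.0159, 0.0238 after Benjamini-Hochberg adjustment over 3 pairs). Mmel1 made up 45.1%, 4.78%, 16.8%, 38.9% and 58.3% of the summed FPKM of both neprilysins in WT replicates 1 to 5. The share was 0.53%, 0.587%, 3.88% and 2.17% in ERβKO replicates 1 to 4. In WT replicate 5 alone, Mmel1 was above Mme.

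Markers of luteal cells, the steroid-producing cells of the corpus luteum, were read beside Mmel1. Of 10 luteal markers, none was called by edgeR and 3 were called lower by DESeq2 (Star, Parm1 and Cyp11a1, named after their values were seen), 9 had a negative log2 fold change, and the median was -0.86. Their summed level was 6220, 3130, 3910, 4170 and 6740 FPKM across WT replicates 1 to 5 and 2600, 2590, 4080 and 2860 FPKM across ERβKO replicates 1 to 4. Within WT, the ovaries stood in the same order for Mmel1 as for the luteal sum, and within ERβKO they did so apart from replicates 1 and 2, which were nearly equal in both. ERβKO replicate 3 had a higher luteal sum than WT replicates 2 and 3 and a lower Mmel1 level than both. The order depends on the summary of the markers. By their mean log2 CPM, WT replicate 3 (8.53) stood below WT replicate 2 (8.63), the reverse of their Mmel1 order. On that scale ERβKO replicate 3 (9.25) was also above WT replicate 4 (8.65). With the mean log2 CPM of the luteal markers as a covariate, a fit chosen after seeing the data, the log2 fold change of Mmel1 was -3.53 (SE 1, adjusted p = 0.263 in edgeR's test) and that of Ednra was -0.48 (SE 0.074, adjusted p = 0.0538). That fit called 21 genes of all tested and none of the 9. The covariate itself was mostly lower in ERβKO ovaries, at 8.53 to 9.6 in WT and 7.18 to 9.25 in ERβKO ovaries. The fit therefore also takes up part of the genotype difference and cannot test the part of luteal cells. None of the luteal markers was at 0 in all ovaries.

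**Figure D3:**
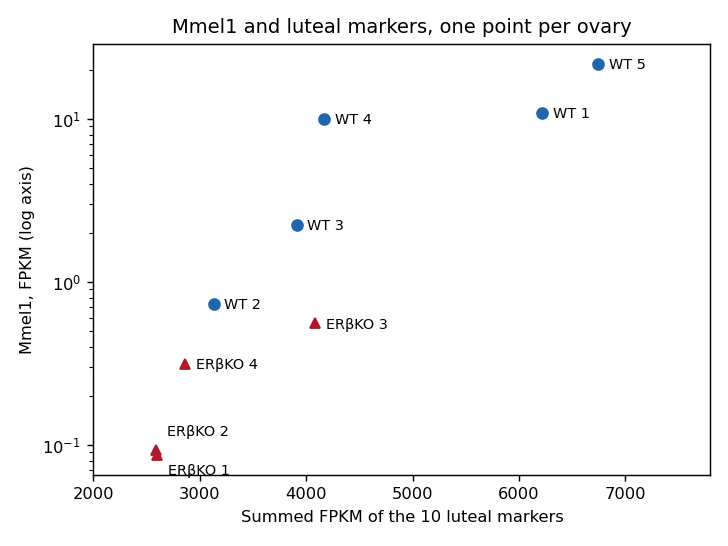
Mmel1 level in FPKM on a log axis against the summed FPKM of 10 luteal markers, with 1 labelled point per ovary. WT replicates 1 and 5, at 6220 and 6740 FPKM, have the highest luteal sums and the highest Mmel1 levels, and ERβKO replicate 3 lies below WT replicates 2 and 3 at a similar sum.

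The M13 family holds 3 further genes, of which Phex was called in the direction opposite to Mmel1. Phex (ENSMUSG00000057457; X chromosome, 157162075 to 157415312, minus strand) encodes the peptidase that is lost in X-linked hypophosphatemia and is best known from bone. It was at 0.866, 1.05, 0.314, 1.46 and 0.805 FPKM across WT replicates 1 to 5 and at 3.99, 3.0, 4.3 and 4.09 FPKM across ERβKO replicates 1 to 4. The 4 ERβKO ovaries all lay above the 5 WT ovaries, as in 4.29% of all genes tested. The ERβKO mean of 3.84 ± 0.57 FPKM was 4.28 times the WT mean of 0.899 ± 0.42 FPKM (SD, n = 5 WT and n = 4 ERβKO). For Phex, the log2 fold change was 2.0 (SE 0.3), and its adjusted p was 0.0127 by edgeR's quasi-likelihood test, and it was called in all 9 fits with 1 ovary left out. With the luteal covariate it was not called (2.17, SE 0.36, adjusted p = 0.0622 in edgeR's test). Ecel1, a relative of the converting enzymes best known from neurons, had 1 to 18 counts per ovary, and Kel, the Kell blood group peptidase, had 0 to 7. Neither passed the filter on low counts.

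**Figure D4:**
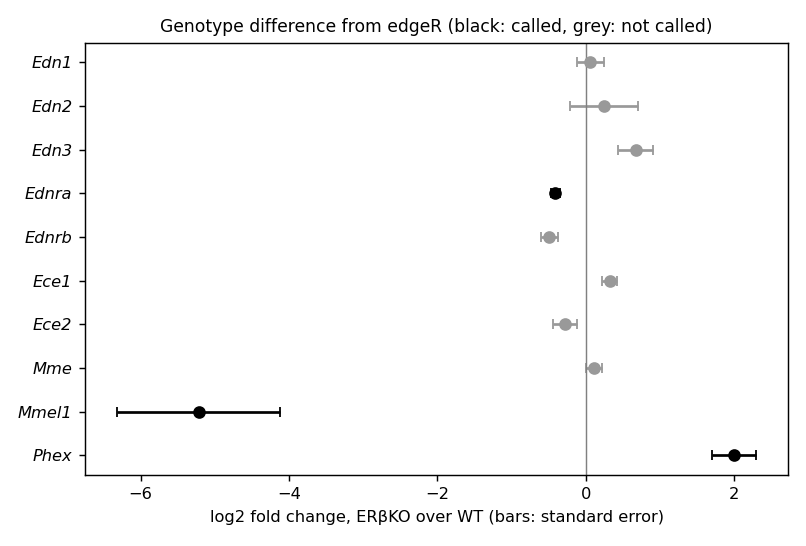
Log2 fold change of ERβKO over WT with its SE for the 9 genes and Phex, from edgeR on 5 WT and 4 ERβKO ovaries. Mmel1 at -5.22 and Phex at 2.0 lie far from 0 on opposite sides, and Ednra at -0.41 has the smallest SE.

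Granulosa cell markers stood higher in ERβKO ovaries. Of 8 granulosa markers, all had a positive log2 fold change with a median of 0.61, and 2 were called higher, Inhbb (1.09, SE 0.15, adjusted p = 0.00883 in edgeR's test), which encodes an inhibin and activin subunit, and Hsd17b1 (0.77, SE 0.16, adjusted p = 0.0363), which makes estradiol. DESeq2 called 4 of the 8 higher. The paper counts Inhbb and Hsd17b1 among the direct targets of ERβ. More granulosa cells cannot be told apart from more RNA per cell here. The summed level of the 8 markers was 515 to 613 FPKM in WT ovaries against 690 to 906 FPKM in those of ERβKO mice, with no overlap. Of all 16722 genes tested, 153 were called higher. Among single genes, 4.29% had all ERβKO ovaries above all WT ovaries, and no such share was calculated for sums. The part of granulosa and luteal cells in these results was not tested, and the luteal covariate cannot test it for the reason given above.

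Genes of other vasoactive and neuronal peptides, their receptors and their processing enzymes showed no call in edgeR's test. Of 25 such genes, 20 were tested, 10 had a positive and 10 a negative log2 fold change, and the median was 0.06. DESeq2 called 1 higher, Nppc, which encodes C-type natriuretic peptide and is named here after its value was seen. The smallest p values were those of Calcrl, the receptor of adrenomedullin, at 4.69 ± 0.28 FPKM in WT ovaries against 3.93 ± 0.31 FPKM in those of ERβKO mice (SD, n = 5 WT and n = 4 ERβKO; log2 fold change -0.28, SE 0.08, adjusted p = 0.0984 in edgeR's test), of Ace, angiotensin-converting enzyme, at 6.04 ± 0.87 and 7.99 ± 0.87 FPKM (0.38, SE 0.11, adjusted p = 0.105), and of Npr1, the receptor of atrial natriuretic peptide, at 30.9 ± 2.6 and 37.5 ± 3.2 FPKM (0.22, SE 0.07, adjusted p = 0.131).

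Markers of the further cell types of a dissected ovary were read for the same libraries. Aldh1a1, from the theca list, was called higher in ERβKO ovaries (log2 fold change 1.05, SE 0.16, adjusted p = 0.014 in edgeR's test), as 1 of 5 theca markers tested. DESeq2 called 2 of the 5 higher, 4 of them had a positive log2 fold change, and the median was 0.9. The theca sum was 481 to 753 FPKM in WT ovaries against 859 to 1770 FPKM in those of ERβKO mice, with no overlap, and its part in the results above was not tested. For this sum too, the share of sums without overlap was not calculated. None of the tested markers of stroma (7), mast cells (5), macrophages (6), adipocytes (6), oocytes (6), surface epithelium (6) or oviduct epithelium (5) was called by edgeR, while DESeq2 called 3 adipocyte markers higher, Cidec, Lep and Plin1. All markers of mast cells, macrophages, adipocytes, oocytes and surface epithelium had a positive log2 fold change. Their medians were 0.59, 0.06, 1.28, 0.43 and 0.18. Stroma had 3 positive and 4 negative markers (median -0.02), and oviduct epithelium 3 and 2 (median 0.25). The adipocyte sum was 71.2 to 150 FPKM in WT ovaries against 94.6 to 541 FPKM in those of ERβKO mice, with ERβKO replicate 1 the highest.

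The number of each library in the labels was below 200 for all ERβKO ovaries and for WT replicates 1 to 3, and above it for WT replicates 4 and 5; the labels do not say what the number marks. Between the libraries below 200, the log2 fold change of Ednra was -0.38 (adjusted p = 0.0872), that of Ednrb -0.5 (adjusted p = 0.167), that of Mmel1 -4.15 (adjusted p = 0.142) and that of Phex 2.27 (adjusted p = 0.0438) in edgeR's quasi-likelihood test. Of all genes, 51 were called in that fit.

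**Figure D5:**
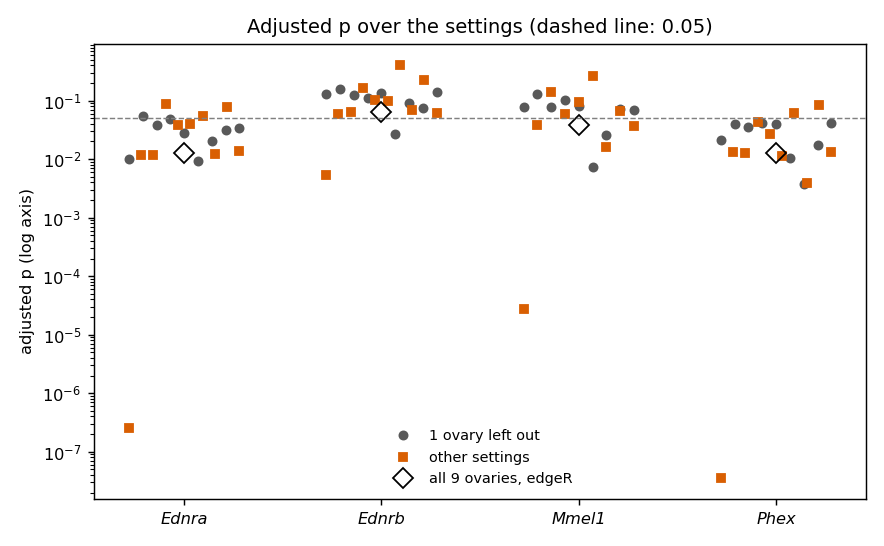
Adjusted p on a log axis for Ednra, Ednrb, Mmel1 and Phex with all 9 ovaries in edgeR (diamonds), with 1 ovary left out (circles) and under the other settings (squares). Most points of Phex lie below the dashed line at 0.05 and most of Ednrb above it, while those of Mmel1 and Ednra lie on both sides; DESeq2 gives the lowest value for each gene.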

How the data were processed

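RNA-seq of whole ovaries of 5 WT and 4 ERβKO mice was analysed, with groups taken from the labels. According to the methods of the study, stranded poly-A libraries were sequenced as read pairs and mapped to GRCm38 by STAR. Counts per gene were made by the authors with featureCounts and deposited without normalization. The deposited FPKM values were calculated by the authors with StringTie. Replicates were not pooled.

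Counts were filtered with filterByExpr (16722 of 46078 genes left), normalized by TMM and fitted with genotype as the factor in edgeR 4.0.16 (R 4.3.3), and p values of the quasi-likelihood test were adjusted by Benjamini-Hochberg over all genes tested. The thresholds are those of the study, which used DESeq2. DESeq2 1.42.0 and limma 3.58.1 on log2 FPKM (pseudocount 1 or 0.1) were alternatives, with other scalings, filters, a replicate block, the libraries numbered below 200, 1 ovary left out and, chosen after seeing the data, a luteal covariate. The SE was taken from the fold change and the F statistic. Ratios within an ovary were compared with exact permutation tests over 126 splits. Tables were handled in Python 3.11.15 with pandas 2.3.3, NumPy 2.4.6 and SciPy 1.17.1. The tests were tried on simulated data. Library totals were 12353740 to 18717510 counts, with a common biological coefficient of variation of 0.179. Named genes are the 9 members, Esr2, the other M13 peptidases and, from each pathway list, the called genes or otherwise the 3 with the smallest p; of the marker lists, called genes are named. The members and lists were chosen with earlier results of these data known. Chromatin data were not used here, and the result of 1 marker list is not reported.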

Additional observations from a re-analysis of the deposited data

How the results depend on the processing

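The count of DEGs over all genes was 287 and became 800 with DESeq2, 191 with limma on log2(FPKM + 1), 151 with the replicate block, 51 with the libraries numbered below 200, 21 with the luteal covariate and 60 to 919 with 1 ovary left out, the lowest without ERβKO replicate 2 and the highest without WT replicate 2. The count among the 9 genes was 2 and became 0 under both limma fits, the replicate block, the libraries below 200 and the luteal covariate, 1 with at least 10 counts in every library, under which Mmel1 was not tested, and 0 to 3 with 1 ovary left out. Why the counts changed was not tested. Ednra was called in 10 of 19 alternatives, Mmel1 in 6 of 18, Ednrb in 2 of 19 and Phex in 17 of 19. Ednra, Ednrb, Ece1, Ece2, Mme, Edn3, Mmel1 and Phex kept their direction in every alternative. Edn1 turned to -0.15 with the luteal covariate and was -0.01 to 0.21 with 1 ovary left out, and Edn2 was -0.07 to 0.59. The difference in the ratio of Ednra to Ednrb was -0.02 with a pseudocount of 1 and -0.06 to 0.11 with 1 ovary left out. The differences in the ratios of Ece1 to Ece2 and of Mme to Mmel1 kept their direction in all 12 alternatives and were 0.69 to 0.8 and 3.75 to 4.9 with 1 ovary left out. Their exact p was in each case the smallest that the number of ovaries allows, so it says nothing about stability, and without any 1 ERβKO ovary it was 0.0357, or 0.0536 after adjustment over the 3 pairs (exact permutation test). Same-numbered ovaries correlated at -0.0427 to 0.13 in their deviations from the group means, and none of the 4 ERβKO ovaries correlated best with its own number. No pairing by number was seen, but so few ovaries cannot show that a weak pairing is absent. With the replicate block, which drops WT replicate 5, Ednra was -0.41 (adjusted p = 0.0772 in edgeR's test), Mmel1 -4.23 (adjusted p = 0.0665) and Phex 2.06 (adjusted p = 0.0835). Edn2, at 4 to 25 counts, and Mmel1 in ERβKO ovaries, at 6 to 28 counts, rest on few counts.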
